A study of Mus musculus with 19 samples.

Results

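Follistatin and the genes of myostatin and activin signalling were followed in mouse tibialis anterior muscle taken 12 h after 50 eccentric contractions, a form of exercise that stretches the muscle while it is active. The genes are a list of 10: the follistatin family (Fst, Fstl1, Fstl3), the ligand genes Mstn, Inhba and Inhbb, the receptors Acvr1 and Acvr2b, and the signal transducers Smad3 and Smad7. Of these, 9 had a probe set that the array annotation gives a single gene symbol, out of 12393 genes so measured, and they carried 14 such probe sets. Mstn, which encodes myostatin, had none and is not analysed here. For each gene the probe set with the highest mean log2 value over the 19 arrays is reported, and 4 of the genes had more than 1 to choose from. For Inhbb the choice depends on the scale, as its other probe set has the higher mean in linear intensity (116.8 against 113.6). The list was chosen by the Fst intensities of adult muscle, which were known to be higher in knockouts on these arrays, so that difference is described with no test.

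The muscles came from 4 groups of 129/SVE mice, 1 array per sample: aged desmin knockouts (KO_Aged, 4 arrays), adult desmin knockouts (KO_Adult, 5), aged wild types (WT_Aged, 5) and adult wild types (WT_Adult, 5). The knockouts were of the genotype Des-/-, aged animals were 12 to 14 months old and adults 7 to 9 weeks. Desmin is the intermediate filament protein that ties the Z-discs of neighbouring myofibrils together. All groups were exercised, so every difference below is between exercised muscles. Whether each array of a group had its own animal is not stated in the labels, and the spread behind each p-value may therefore be partly technical.

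Myostatin and the activins are ligands of the TGF-beta family. They bind a type II receptor such as ACVR2B, which recruits and phosphorylates a type I receptor, and the type I receptor phosphorylates SMAD2 and SMAD3, which enter the nucleus with SMAD4. In skeletal muscle this pathway restrains fibre growth. Follistatin, and its relative FSTL3, bind these ligands outside the cell and keep them from their receptors, and SMAD7 acts inside the cell as a feedback inhibitor of the receptors.

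The labels and the tissue were checked first. The main Des probe set read 72.7 to 636 on KO_Aged and 311 to 879 on KO_Adult arrays, against 10749 to 12736 on WT_Aged and 13700 to 22313 on WT_Adult arrays, which goes with the genotype labels of all 19. All 9 genes of the fast muscle fibre list (Ckm, Acta1, Myh4, Myh1, Mylpf, Tnnt3, Tnni2, Actn3, Pvalb) were measured, and their summed intensity was 230517 to 263329 in KO_Aged, 214954 to 263630 in KO_Adult, 194299 to 247682 in WT_Aged and 200900 to 359371 in WT_Adult. Both spike-in signal and the Gapdh ratio differed between the groups. Poly-A spike-in signal (the control dap at 607 to 1554) and 18S ribosomal RNA (5835 to 19660) were present on 8 arrays, namely all 5 WT_Aged arrays and KO_Adult replicates 3, 4 and 5; the other 11 read 1.43 to 29.7 for dap and 29.1 to 181 for 18S. The Gapdh 3' to 5' ratio, a sign of RNA or cRNA length, was 8.61 and 5.01 on KO_Aged replicates 2 and 3 and 0.766 to 0.968 on the other 17 arrays. KO_Aged and WT_Aged arrays therefore differ completely in spike-in signal, as do WT_Aged and WT_Adult arrays, and in those comparisons group and array class cannot be told apart except through the 5 KO_Adult arrays, which hold both classes. The sample titles end in a number whose meaning is not stated; by its first 4 digits the arrays fall under 14 codes, and KO_Aged replicate 4 shares its code with WT_Aged replicates 4 and 5.

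Fst was dimmest in adult wild-type muscle and brightest in aged knockout muscle. The gene lies at chr13:114452262-114458989 (GRCm38.p6), and its probe set 1421365_at was the only one. It read 441, 274, 337 and 338 on the KO_Aged arrays. On the KO_Adult arrays it read 247, 257, 291, 318 and 133. It read 246, 174, 170, 172 and 153 on the WT_Aged arrays, and 52.4, 65.2, 47.8, 35.3 and 65.8 on the WT_Adult arrays. No array of another group came down to the WT_Adult level, and all 5 WT_Adult values, unlike those of the other 14 arrays, lay below the median intensity of their own array. The KO_Aged arrays all lay above the WT_Aged arrays, whereas the KO_Adult arrays overlapped both aged groups.

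In group means Fst stood at 348 ± 69.2 (SD, n = 4) in KO_Aged, 249 ± 70.9 (SD, n = 5) in KO_Adult, 183 ± 36.2 (SD, n = 5) in WT_Aged and 53.3 ± 12.8 (SD, n = 5) in WT_Adult muscle. Between neighbours in this order, KO_Aged exceeded KO_Adult by 0.39 on the log2 scale (SE 0.22, 95% interval -0.08 to 0.86), an interval that includes 0. KO_Adult exceeded WT_Aged by 0.46 (SE 0.21), where genotype and age differ together. WT_Aged exceeded WT_Adult by 1.87 (SE 0.21), which is 3.66-fold on the scale of log2(intensity + 4.76) used throughout. Between genotypes in adult muscle, KO_Adult exceeded WT_Adult by 2.33 (SE 0.21), or 5.02-fold. These differences rest on adult arrays whose Fst values were known when the list was made, and have no test. The same holds of the interaction, the genotype difference in aged minus that in adult muscle, which was -1.48 (SE 0.31).

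The comparison of aged knockout with aged wild-type muscle shares no array with the adult one, and there Fst was tested. It rose by 0.85 (SE 0.22, 1.8-fold; limma, adjusted p = 0.0083 over all 7436 genes tested), and was higher on each of the 4 KO_Aged arrays than on any of the 5 WT_Aged arrays. With 1 array left out at a time the difference ran from 0.76 to 0.95. Without the 2 arrays of high Gapdh ratio it was 0.91 (adjusted p = 0.0464). With the title code as a random block Fst differed by 0.84 (adjusted p = 0.00562), and without the 3 arrays of the shared code by 0.80 (SE 0.29, adjusted p = 0.076), which misses the threshold with fewer arrays. With spike-in signal as a term in the model it was 0.70 (SE 0.38, adjusted p = 0.255), a value that rests on the difference between the 2 classes of KO_Adult arrays.

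**Figure D1:**
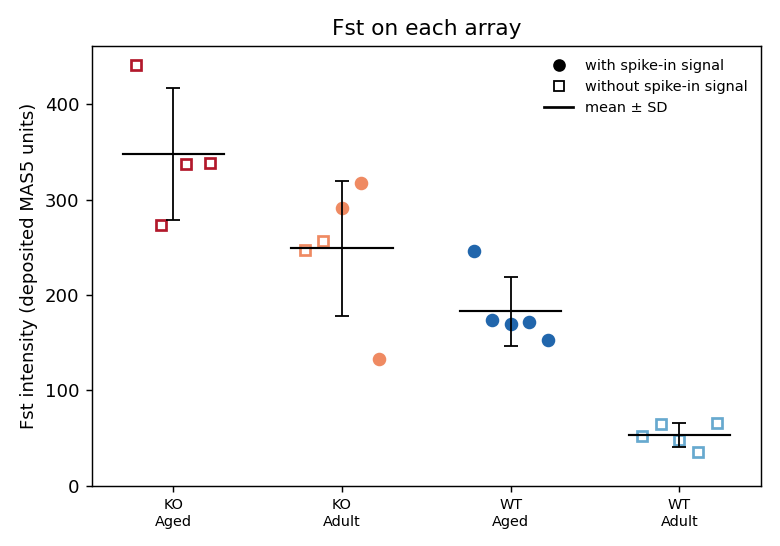
Fst intensity (deposited MAS5 units, linear axis from 0) on each of the 19 arrays by group, filled circles for arrays with spike-in signal and open squares for those without, lines and bars for the mean ± SD. The 4 KO_Aged arrays sit between 274 and 441, above all 5 WT_Aged arrays, and the 5 WT_Adult arrays between 35.3 and 65.8 lie below every other array.

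Within each class of arrays the Fst levels are given as a description. The adult arrays among them are those on which the list was chosen, so their difference is no separate check. The 2 KO_Adult arrays without spike-in signal read 247 and 257, and the 5 WT_Adult arrays, none with the signal, read at most 65.8, a difference of 2.42 (SE 0.24). Among arrays with the signal the comparison is between KO_Adult and WT_Aged, so that genotype and age differ together. There KO_Adult replicates 3, 4 and 5 read 133 to 318 and the WT_Aged arrays 153 to 246, a difference of 0.40 (SE 0.27) with overlapping values.

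Fst is made by several cell types, and the muscles differed in markers of some of them. In bulk tissue fewer cells of a type and less RNA per cell cannot be told apart. The summed intensity of 10 of 10 satellite cell and myoblast markers was 3416 to 4493 in KO_Aged and 3330 to 4965 in KO_Adult, against 4163 to 6100 in WT_Aged and 4697 to 6682 in WT_Adult. Of the 7 tested, 3 were higher and 2 lower in aged knockouts, where 29.4% of all genes were called. In adult knockouts 2 were higher and 2 lower, with 16.6% of all genes called. Myod1, a transcription factor of activated myoblasts, fell in aged knockouts (-1.14, SE 0.18, limma adjusted p = 0.000177) and in adult knockouts (-1.12, SE 0.17, adjusted p = 0.000295). It is a bright part of the sums, at 857 to 1604 in KO_Aged and 1970 to 2694 in WT_Aged. The embryonic myosin Myh3 rose in both, by 1.73 (SE 0.31) in aged and 1.32 (SE 0.29) in adult muscle, with adjusted p of 0.000467 and 0.0048. With spike-in signal as a term the adult Myh3 call was lost (adjusted p = 0.113). Chrna1 (1.19) and Cdh15 (0.60) were also called higher in aged knockouts. Without both arrays of high Gapdh ratio neither passed (0.58 and 0.49, limma adjusted p = 0.321 and 0.176). In adult knockouts Myh8 was called higher (1.28) and Cd34 lower (-0.99). With the term Myh8 kept its call (1.46, limma adjusted p = 0.0234), and Chrna1 (0.67), Cdh15 (-0.01) and Cd34 (-0.37) did not. The satellite cell marker Pax7 was dim, at 12.4 to 86.2 in KO_Aged, 9.17 to 54.7 in KO_Adult, 2.65 to 22.2 in WT_Aged and 41.3 to 70.4 in WT_Adult.

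Markers of other cells moved with some of the groups. The 8 of 8 endothelial markers summed to 2270 to 3593 in KO_Aged and 1857 to 2564 in KO_Adult, against 2715 to 3538 in WT_Aged and 5082 to 5822 in WT_Adult. Fibroblast markers (9 of 9) summed to 21910 to 31388 in KO_Aged, 15101 to 33843 in KO_Adult, 12341 to 19891 in WT_Aged and 21361 to 26819 in WT_Adult. The fibroblast sums of the WT_Aged arrays lay below those of KO_Aged and WT_Adult. Macrophage markers (9 of 9) summed to 6333 to 11741 in KO_Aged, 3358 to 6617 in KO_Adult, 3375 to 12230 in WT_Aged and 3216 to 5654 in WT_Adult. Neutrophil markers (4 of 6) summed to 6826 to 12579 in KO_Aged, 412 to 4340 in KO_Adult, 2358 to 12953 in WT_Aged and 443 to 1656 in WT_Adult. Their part in the Fst levels, and in those of the genes below, was not tested. No value in the table was 0, since the smallest deposited intensity is 1.

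Of the relatives of follistatin, Fstl3 was lower in adult knockouts and in aged wild types than in adult wild types. Fstl3 (chr10:79777274-79782630), a secreted antagonist like follistatin, read 165, 85.4, 77.4 and 60.7 in KO_Aged and 69.8, 57.1, 73.4, 54.9 and 52 in KO_Adult. It read 53, 66.3, 60.8, 76 and 102 in WT_Aged and 169, 130, 96, 121 and 190 in WT_Adult. The KO_Adult arrays all lay below the WT_Adult arrays, while KO_Aged and WT_Aged overlapped and KO_Aged replicate 1 and WT_Aged replicate 5 reached the WT_Adult range. Fstl3 fell by 0.88 in KO_Adult against WT_Adult (SE 0.24, limma adjusted p = 0.0189) and by 0.78 in WT_Aged against WT_Adult (SE 0.24, adjusted p = 0.0172). In KO_Aged against WT_Aged it differed by 0.28 (SE 0.26, adjusted p = 0.425), and the genotype difference changed with age (interaction 1.16, SE 0.35, adjusted p = 0.0233).

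Of these antagonists, Fst was thus higher and Fstl3 lower in KO_Adult than in WT_Adult muscle. The Fstl3 differences were as large with the spike-in term, at -0.87 in adults and -0.77 between wild-type ages, but their errors were wider and the adjusted p was 0.115 and 0.424. The interaction was 1.14 with the term (adjusted p = 0.381). Leaving out both arrays of high Gapdh ratio gave 1.13 (adjusted p = 0.0784). With the title code as a random block Fstl3 just missed the threshold in adults (-0.92, adjusted p = 0.051) and for the interaction (1.09, adjusted p = 0.0553).

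Fstl1 (chr16:37777055-37836516) is a secreted glycoprotein related in sequence to follistatin and was the brightest of the list. It read 1893 to 2381 in KO_Aged and 762 to 2643 in KO_Adult, against 952 to 1627 in WT_Aged and 1183 to 2062 in WT_Adult. The KO_Aged arrays lay above all WT_Aged arrays, with a difference of 0.69 (SE 0.29) that did not pass (limma adjusted p = 0.0742). Its 3 KO_Adult arrays with spike-in signal read 762 to 965 and the 2 without it 1533 and 2643, and with the term the aged genotype difference was -0.48 (SE 0.35). Its other probe set, 1448259_at, read 968 to 1582 in KO_Aged, 661 to 1537 in KO_Adult, 858 to 1485 in WT_Aged and 623 to 1242 in WT_Adult, and these ranges all overlap.

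**Figure D2:**
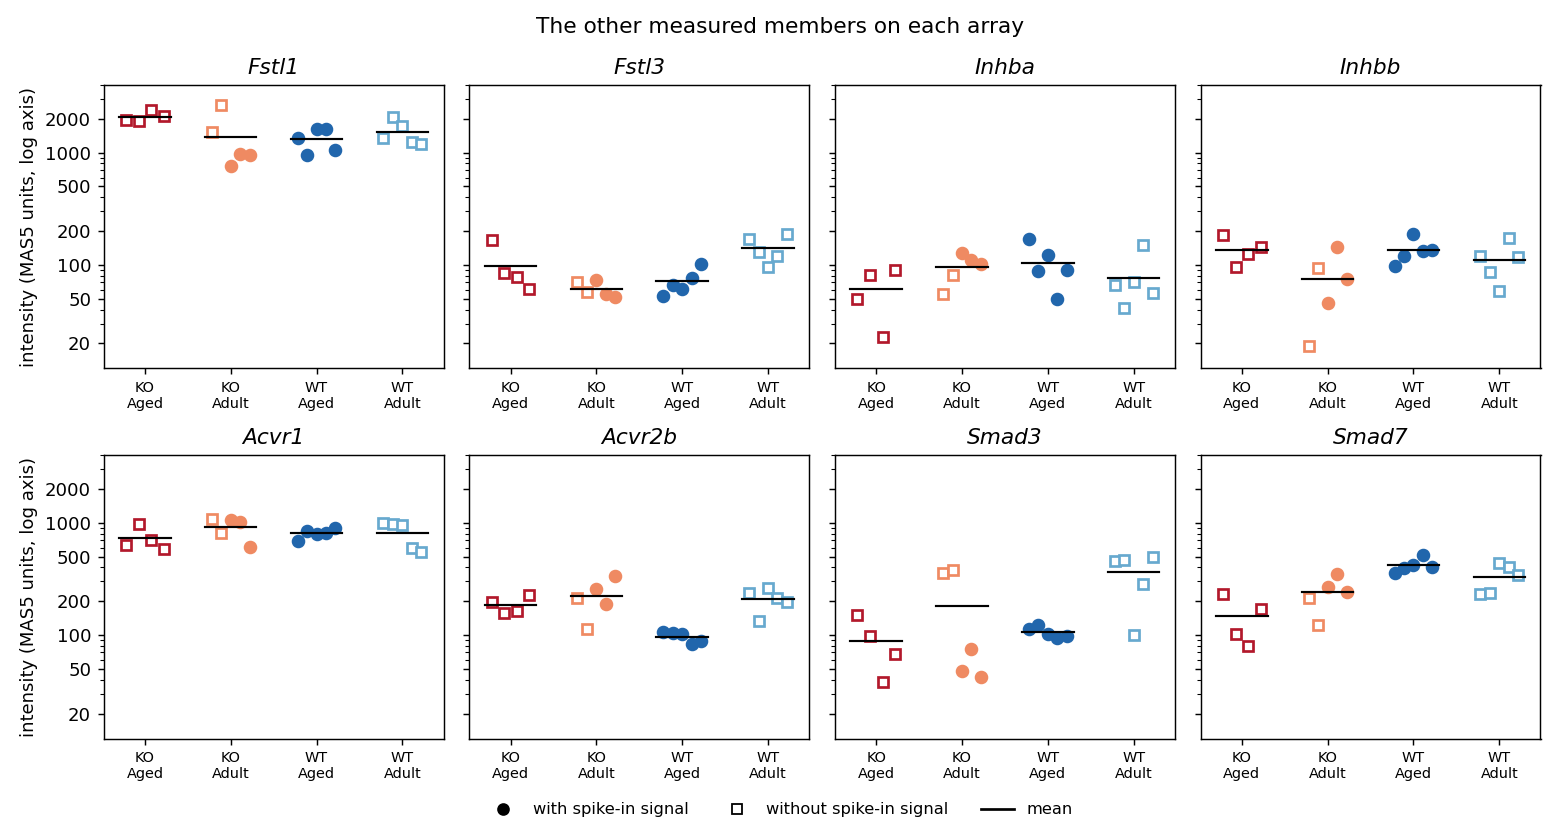
Intensity (deposited MAS5 units, log axis) of the 8 other measured genes on each array by group, filled circles for arrays with spike-in signal, open squares for those without, lines for group means. Acvr2b is lowest on the 5 WT_Aged arrays (83.3 to 106), Smad7 lies lower on KO_Aged arrays (80 to 233) than on WT_Aged arrays (354 to 513), and Smad3 in KO_Adult splits with the spike-in signal.

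The activin ligand genes were dim, and their values overlapped between all groups. Inhba (chr13:16004256-16031609) encodes the subunit of activin A and Inhbb (chr1:119415463-119422248) that of activin B. Inhba read 22.9 to 89.6 in KO_Aged, 55 to 128 in KO_Adult, 49.5 to 171 in WT_Aged and 41.7 to 149 in WT_Adult. Inhbb read 95.5 to 183 in KO_Aged, 18.8 to 144 in KO_Adult, 98.6 to 190 in WT_Aged and 58.2 to 173 in WT_Adult. On these probe sets none of the differences of either gene passed the test. For Inhba the aged genotype difference was -0.90 (SE 0.41, limma adjusted p = 0.102), the adult one 0.62 (SE 0.38, adjusted p = 0.277) and the interaction -1.52 (SE 0.56, adjusted p = 0.0534).

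The 2 probe sets of Inhbb did not read alike. The other one, 1426858_at, read 22.7 to 155 in KO_Aged, 42.2 to 192 in KO_Adult, 97.8 to 318 in WT_Aged and 39.6 to 101 in WT_Adult. On it Inhbb fell by 1.34 in KO_Aged against WT_Aged (SE 0.48, limma adjusted p = 0.0431) and rose by 1.57 in WT_Aged against WT_Adult (SE 0.45, adjusted p = 0.012), against -0.04 (SE 0.40) and 0.49 (SE 0.37) on the reported probe set. With that set in place of the reported one, 4 of 9 listed genes rather than 3 would be called in KO_Aged against WT_Aged, and 4 of 8 rather than 3 in WT_Aged against WT_Adult. Which of them follows the transcript was not tested.

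Acvr2b, the type II receptor through which myostatin signals, was lowest in aged wild-type muscle. It lies at chr9:119401583-119442148. It read 197, 157, 165 and 227 in KO_Aged and 215, 113, 258, 188 and 338 in KO_Adult, against 106, 105, 102, 83.3 and 88.9 in WT_Aged and 239, 134, 262, 213 and 198 in WT_Adult. All 5 WT_Aged arrays lay below all 14 others. Acvr2b was higher in KO_Aged than in WT_Aged by 0.84 (SE 0.23, 1.79-fold, limma adjusted p = 0.0116) and lower in WT_Aged than in WT_Adult by log2 -0.91 (SE 0.22, adjusted p = 0.0042). In adults the genotypes differed by 0.20 (SE 0.22, 95% interval -0.26 to 0.66).

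The WT_Aged level also stood apart among arrays with spike-in signal. KO_Adult replicates 3, 4 and 5 read 258, 188 and 338, above the 5 WT_Aged arrays, with a difference of 1.37 (SE 0.17, limma adjusted p = 0.00197), genotype and age differing together. In that comparison 16.4% of all tested genes were called. With the spike-in term the aged genotype difference of Acvr2b was 1.49 (adjusted p = 0.024) and the wild-type age difference -1.56 (adjusted p = 0.11). Leaving out both arrays of high Gapdh ratio gave 0.89 for the aged difference (SE 0.31, adjusted p = 0.0619), and leaving out the 3 arrays of the shared title code gave 0.71 for Acvr2b (SE 0.31, adjusted p = 0.128).

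Acvr1 (chr2:58446438-58566828), a type I receptor better known for BMP signalling that also binds activin, did not give the same answer on all 3 of its probe sets. The reported one, 1448460_at, read 585 to 977 in KO_Aged, 605 to 1082 in KO_Adult, 688 to 889 in WT_Aged and 554 to 994 in WT_Adult, and no difference passed. The next, 1416786_at, read 145 to 500 in KO_Aged, 76.6 to 320 in KO_Adult, 86.4 to 138 in WT_Aged and 224 to 440 in WT_Adult. On that one KO_Aged exceeded WT_Aged by 1.21 (SE 0.33, limma adjusted p = 0.0109) and WT_Aged fell below WT_Adult by log2 -1.42 (SE 0.31, adjusted p = 0.00233), where the reported set gave -0.21 (SE 0.24) and 0.03 (SE 0.22). The dimmest, 1416787_at, gave 0.92 (adjusted p = 0.0272) and -0.80 (adjusted p = 0.032). The direction for Acvr1 therefore depends on the probe set, with the 2 others alike in direction and call. With either of them in place of the reported one, 4 of 9 listed genes rather than 3 would be called in KO_Aged against WT_Aged. In WT_Aged against WT_Adult 4 of 8 rather than 3 would be called, and for the interaction 3 of 8 rather than 2.

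Smad7, the inhibitory SMAD, was lower in aged knockout than in aged wild-type muscle. It read 233, 103, 80 and 171 in KO_Aged and 213, 124, 270, 352 and 242 in KO_Adult. In wild types it read 354, 396, 416, 513 and 405 in WT_Aged and 233, 235, 434, 407 and 340 in WT_Adult. The KO_Aged and WT_Aged arrays did not overlap, and the 2 lowest arrays, KO_Aged replicates 3 and 2, were those with a high Gapdh ratio. Smad7 fell by 1.61 in KO_Aged against WT_Aged (SE 0.28, 3.06-fold lower, limma adjusted p = 0.000383), while in adults the difference was -0.35 (SE 0.26, adjusted p = 0.371). The interaction was -1.26 (SE 0.38, adjusted p = 0.0229).

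The lower Smad7 level remained past the test without the 2 arrays of high Gapdh ratio, at -1.21 (adjusted p = 0.0168), but the interaction did not (-0.86, adjusted p = 0.152). With the spike-in term the aged difference was -0.86 (SE 0.42, adjusted p = 0.213) and the interaction -0.06 (SE 0.64). The interaction also missed the threshold without KO_Aged replicate 3 alone (-1.03, adjusted p = 0.0584). Without the 3 arrays of the shared title code the aged difference of Smad7 was -1.57 (adjusted p = 0.012) and the interaction -1.22 (adjusted p = 0.0818).

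Smad3 (chr9:63646766-63757994), which carries the myostatin and activin signal to the nucleus, divided the adult knockout arrays by class. KO_Adult replicates 1 and 2, without spike-in signal, read 360 and 383, and replicates 3, 4 and 5, with it, read 47.7, 75.6 and 42.3. KO_Aged arrays, all without the signal, read 152, 97.8, 38.5 and 67.4. WT_Aged arrays, all with it, read 113, 123, 103, 94.6 and 97.2, and WT_Adult arrays, all without it, read 458, 467, 101, 286 and 499. Smad3 was lower in WT_Aged than in WT_Adult (log2 -1.46, SE 0.56, limma adjusted p = 0.0473), but the sign turned with the spike-in term (1.15, SE 0.67, adjusted p = 0.439).

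For Smad3 the aged genotype difference was -0.49 (SE 0.60, adjusted p = 0.559), and -3.09 (SE 0.68, adjusted p = 0.0176) with the spike-in term. Within the arrays with signal KO_Adult was below WT_Aged by log2 -0.78 (SE 0.17, limma adjusted p = 0.0177). The wild-type age call was also lost in 10 of the 19 fits that left out 1 array, with adjusted p up to 0.105 (without WT_Adult replicate 2), with the title code as a random block (adjusted p = 0.0642) and without the 3 arrays of the shared code (adjusted p = 0.151). The other Smad3 probe set, 1450471_at, read 2.85 to 6.05 on the WT_Aged arrays, near the 4.76 added before the log, and 17.7 to 337 on the WT_Adult arrays. It read 2.57 to 89.7 in KO_Aged. On KO_Adult arrays it read 145 and 229 without spike-in signal and 5.05, 13.5 and 3 with it. On that set the aged genotype difference had the other sign (1.17, limma adjusted p = 0.402).

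Counted over the list, the share of genes called lay near that of all genes in the genotype, wild-type age and interaction comparisons. In KO_Aged against WT_Aged, 3 of 9 were called, Fst and Acvr2b higher and Smad7 lower, where 29.4% of all 7436 tested genes were called (17.1% higher and 12.3% lower). The median of the 9 log2 differences was -0.04, against 0.08 over all tested genes. In KO_Adult against WT_Adult, leaving Fst out, 1 of 8 was called (Fstl3, lower), with 16.6% of all genes called (9.39% lower) and a median of -0.32 against 0.04. In WT_Aged against WT_Adult 3 of 8 were called, all lower (Fstl3, Acvr2b, Smad3), with 38.9% of all genes called (21% lower) and a median of -0.10 against -0.03.

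In KO_Aged against KO_Adult limma called 0 of 8 with 7.32% of all genes called. An unadjusted p under 0.05 was found for 4 of the 8 (Smad7, Fstl1, Inhbb and Inhba) and for 1728 of all 7436 genes. With array weights 3 of the 8 were called, and 17.1% of all genes. For the interaction 2 of 8 were called, Fstl3 higher and Smad7 lower, with 25.1% of all genes called (14.5% higher and 10.7% lower). Comparisons that share a group of arrays are not independent, and the WT_Aged arrays enter both the aged genotype and the wild-type age difference of Acvr2b. With the spike-in term the counts were 2 of 9 (Acvr2b and Smad3) in KO_Aged against WT_Aged, 0 of 8 in KO_Adult against WT_Adult and 0 of 8 in WT_Aged against WT_Adult. The term left 5.45%, 6.67% and 0.0941% of all genes called in these comparisons. With it limma gave an unadjusted p under 0.05 for 3 of the 8 in KO_Adult against WT_Adult, and for 1791 of all 7436 genes. In WT_Aged against WT_Adult 2 of the 8 and 1052 of all genes had one. With the term 1 of 8 was called in KO_Aged against KO_Adult, with 9.99% of all genes called. For the interaction 0 of 8 were called, with 0.0269% of all genes called. There 2 of the 8 and 1228 of all genes had an unadjusted p under 0.05. Without both arrays of high Gapdh ratio limma called 2 of 9 in KO_Aged against WT_Aged (Fst and Smad7), with 14.2% of all genes called. For the interaction it called 0 of 8, with 14.5% of all genes called, and 3 of the 8 and 2247 of all genes had an unadjusted p under 0.05. Among arrays without spike-in signal limma called 0 of 8 in KO_Adult against WT_Adult, with 1.44% of all genes called. There 2 of the 8 and 1278 of all genes had an unadjusted p under 0.05.

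**Figure D3:**
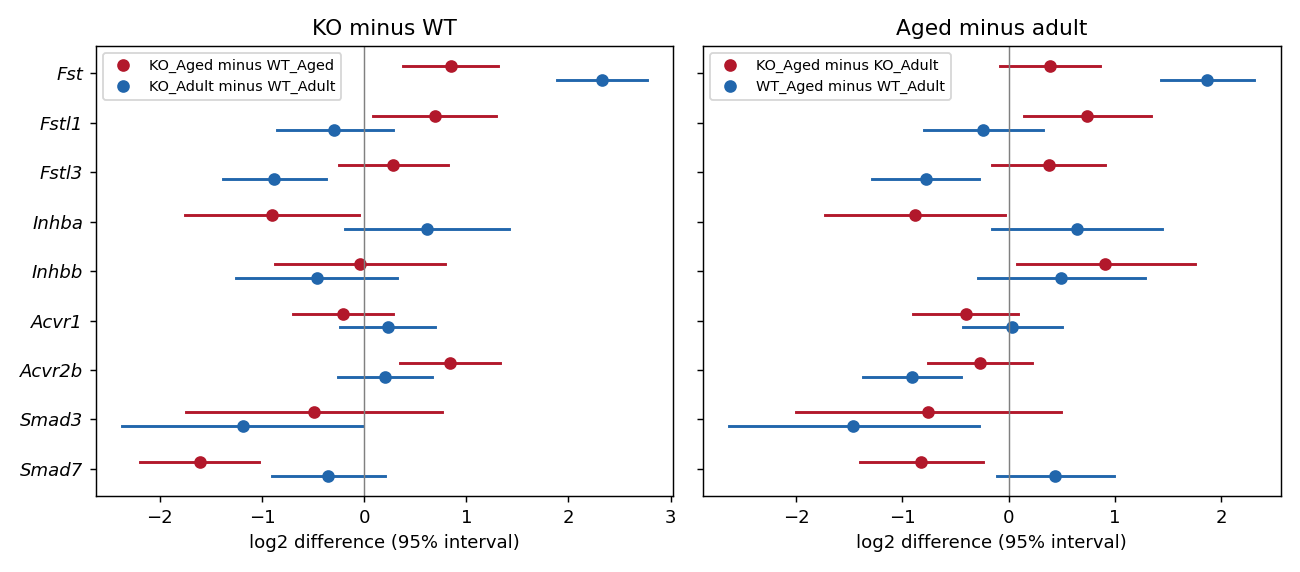
Log2 differences (points, with 95% intervals as lines) of the 9 measured genes between genotypes (left) and between ages (right). Fst lies at 2.33 between adult genotypes and 0.85 between aged ones, Acvr2b and Smad7 lie on opposite sides of 0 in the aged genotype comparison (0.84 and -1.61), and most other intervals include 0.

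**Figure D4:**
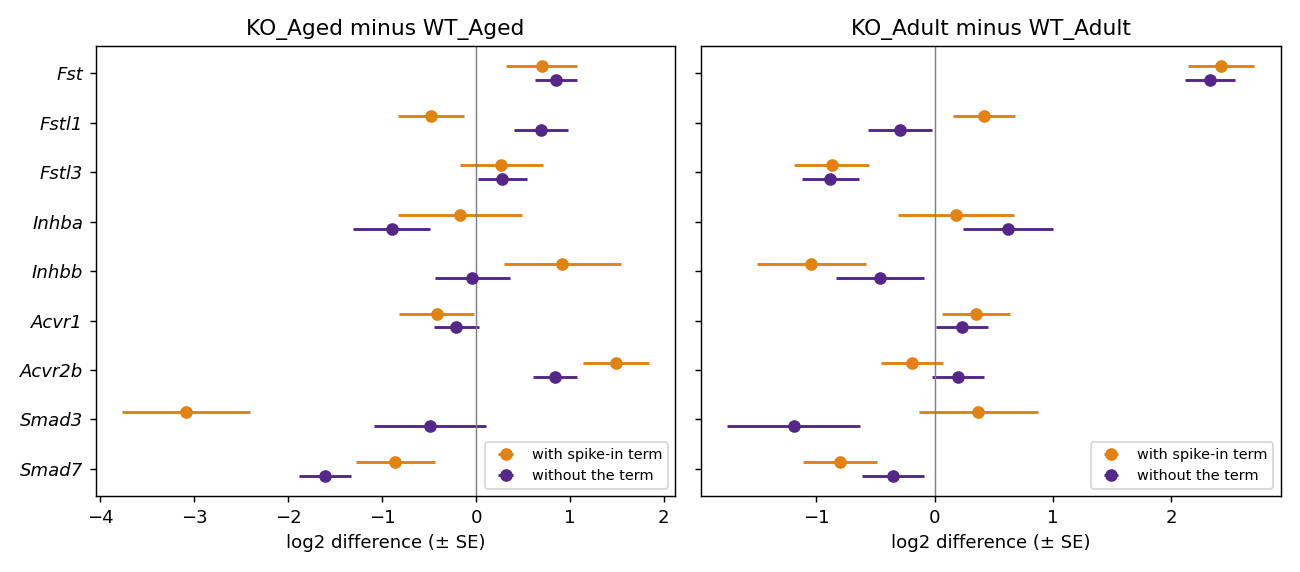
Log2 differences (± SE) between genotypes with (orange) and without (purple) spike-in signal as a term, in aged (left) and adult (right) muscle. Fst stands at 0.70 with and 0.85 without the term in aged muscle, and at 2.42 and 2.33 in adult muscle. The aged Fst call is lost with the term (limma adjusted p = 0.255), and Smad3 in aged muscle moves to -3.09.

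The promoters of 8 listed genes, Mstn among them, could be read from the RefSeq table of the build GRCm38.p6 and searched on both strands for CAGAC, the short sequence that SMAD3 binds; Fst and Smad7 were not among them. The promoters of 2 are shown because both genes were called lower in WT_Aged against WT_Adult and because they differ in this motif. Acvr2b, also called lower there, holds 1 match and is not shown. Each run is the 250 bases before the start of the gene, read 5′ to 3′ along the gene's strand, with CAGAC or its complement GTCTG in capitals, on chr10:79777024-79777273 (+) for Fstl3 and chr9:63757995-63758244 (-) for Smad3:
Fstl3: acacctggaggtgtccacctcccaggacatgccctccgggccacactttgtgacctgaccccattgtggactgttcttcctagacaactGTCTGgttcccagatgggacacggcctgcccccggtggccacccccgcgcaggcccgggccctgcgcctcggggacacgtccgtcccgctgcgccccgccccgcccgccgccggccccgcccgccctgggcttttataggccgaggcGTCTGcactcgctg
Smad3: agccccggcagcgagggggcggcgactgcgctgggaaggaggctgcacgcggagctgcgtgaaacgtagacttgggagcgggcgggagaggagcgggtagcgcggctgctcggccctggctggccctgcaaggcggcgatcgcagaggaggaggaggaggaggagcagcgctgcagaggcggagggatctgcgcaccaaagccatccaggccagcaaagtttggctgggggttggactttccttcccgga
The Fstl3 run holds 2 matches, starting at -161 and -14 from the gene's start, and TATAAA on the opposite strand at -29, and the Smad3 run holds none. Both CAGAC matches lie on the opposite strand, where the printed run reads GTCTG. The motif is common: 42.2% of 32851 promoter runs of this length hold it, and 12.4% hold TATAAA on either strand, so a match describes the sequence and no binding.

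Genes whose pattern over the 19 arrays was most like that of Fst were sought among all tested genes by Pearson's r on log2 values, as a description. The highest were Hprt (r = 0.94), a purine salvage enzyme often used as a reference gene, the proteasome subunit Psmd14 (0.91), Slc35f5 (0.91), the annexin Anxa7 (0.90) and Evi2a (0.89). Lowest were Ybx2 (-0.94), a nucleic acid binding protein, Smarcd3 (-0.91), a chromatin remodelling subunit with a role in muscle, and Ppp1r37 (-0.91). They include differences between group means. With each array taken relative to its group, r with Fst was 0.40 for Hprt, 0.23 for Psmd14, 0.52 for Slc35f5, 0.15 for Anxa7 and 0.29 for Evi2a, and -0.31 for Ybx2, -0.47 for Smarcd3 and -0.54 for Ppp1r37. Hprt read 1272 to 1488 in KO_Aged, 1215 to 1488 in KO_Adult, 1196 to 1395 in WT_Aged and 837 to 900 in WT_Adult, so it was lowest in the same group as Fst. Among the listed genes r with Fst lay between -0.53 (Fstl3) and 0.12 (Fstl1).

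Other genes of the pathway were read from lists chosen with earlier results of these arrays known. Of 98 listed, 81 were measured and 54 tested. In KO_Aged against WT_Aged 9 were higher and 11 lower, and in KO_Adult against WT_Adult 4 were higher and 8 lower, where 29.4% (17.1% higher, 12.3% lower) and 16.6% (7.21% higher, 9.39% lower) of all tested genes were called. Their median log2 difference was -0.05 in aged and 0.04 in adult muscle, against 0.08 and 0.04 over all tested genes.

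Of 8 other ligand genes tested, 2 fell in adult knockouts (16.6% of all genes called), and the median was 0.05, against 0.04 over all genes. In aged knockouts 1 was higher and 1 lower (29.4% called), with a median of 0.27, against 0.08 over all genes. Bmp6, a bone morphogenetic protein, had 121 ± 24.8 in KO_Adult and 383 ± 84.6 in WT_Adult (SD, n = 5 each; log2 -1.45, limma adjusted p = 0.00135) and also passed with the spike-in term (-1.34, adjusted p = 0.0322). Tgfb1 had 86.4 ± 57.1 in KO_Adult and 286 ± 141 in WT_Adult (SD, n = 5 each; -1.55, adjusted p = 0.0114), and -0.66 (adjusted p = 0.343) with the term. In aged muscle Tgfb2 was lower in knockouts (-1.74, adjusted p = 0.00104) and Bmp5 higher (1.69, adjusted p = 0.00304), and neither passed with the term (-0.53 and 0.72). Of the 2 other antagonists tested, limma called 0 in either genotype comparison, and 0 had an unadjusted p under 0.05.

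Of 7 genes tested that store, release or process the ligands, 3 rose in aged knockouts (29.4% of all genes called), and 1 rose and 2 fell in adult ones (16.6% called). Their medians were 0.86 in aged and 0.36 in adult muscle, against 0.08 and 0.04 over all genes. Ltbp1, a latent TGF-beta binding protein, rose in knockouts at both ages, by 0.86 (SE 0.20, limma adjusted p = 0.00348) in aged and 0.95 (SE 0.19, adjusted p = 0.00215) in adult muscle. It kept its adult call with the spike-in term (1.09, adjusted p = 0.0159) but not its aged one (0.64, adjusted p = 0.237). Ltbp4, which also binds latent TGF-beta, rose in aged knockouts (1.27, adjusted p = 0.0169) and fell in adult knockouts (-1.85, adjusted p = 0.00196). Furin, the protease that matures these ligands, fell in adult knockouts (-0.87, adjusted p = 0.0176), and the related protease Pcsk6 rose in aged knockouts (1.28, adjusted p = 0.0332). With the term Ltbp4 stood at -0.44 and -0.83, Furin at -0.87 and Pcsk6 at 0.25, none of them past the threshold. Without both arrays of high Gapdh ratio the aged calls of Pcsk6 (0.71, adjusted p = 0.408) and Ltbp1 (0.72, adjusted p = 0.0641) were lost.

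Of 8 other receptors tested, 2 rose and 1 fell in aged knockouts and 2 fell in adult ones, beside the 29.4% and 16.6% of all genes called. Their medians were -0.48 in aged and 0.17 in adult muscle. The 2 that fell in adult muscle were Eng (endoglin, log2 -1.52, SE 0.21, limma adjusted p = 0.000163) and Acvrl1 (111 ± 40.3 in KO_Adult and 256 ± 52 in WT_Adult, SD, n = 5 each, limma adjusted p = 0.00735). Both are receptors of endothelial cells. In the same comparison 7 of 8 endothelial markers tested fell and none rose, where 9.39% of all genes were called lower. A link between these falls was not tested, and fewer cells and less RNA per cell cannot be told apart. Eng passed with the spike-in term (-1.33, adjusted p = 0.00992) and Acvrl1 did not (-0.51). In aged knockouts Tgfbr2 and Bmpr2 were higher (0.53 and 0.67) and the activin type I receptor Acvr1b lower (-0.52, adjusted p = 0.0384), none of them past the threshold with the term. Without both arrays of high Gapdh ratio Tgfbr2 (0.45, adjusted p = 0.228) and Bmpr2 (0.44, adjusted p = 0.365) also missed it.

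Of 11 other SMADs and their regulators tested, 2 were higher and 5 lower in aged knockouts, where 17.1% of all genes were called higher and 12.3% lower. Their median was -0.69, against 0.08 over all genes. In adult knockouts limma called 0 of the 11, and 3 had an unadjusted p under 0.05, as did 2352 of all 7436 genes. Whether the ages differ was tested by the interaction, which called 4 of the 11, Smad1, Smad5 and Smad6 lower and Ppm1a higher, with 25.1% of all genes called. With the spike-in term the interaction called 0 of the 11, and 2 had an unadjusted p under 0.05, as did 1228 of all 7436 genes. Smad6 also missed the threshold there without both arrays of high Gapdh ratio (adjusted p = 0.0651). Smad1, a transducer of BMP signals, had 639 ± 119 in KO_Aged (SD, n = 4) and 1884 ± 276 in WT_Aged (SD, n = 5), a fall of log2 -1.60 (limma adjusted p = 0.00011). Smad5 fell by 2.26 (adjusted p = 0.00553) and Pmepa1, an inhibitor induced by TGF-beta, by 1.40 (adjusted p = 0.00144), while Ppm1a, a SMAD phosphatase, rose by 0.57 (adjusted p = 0.0112). With the spike-in term Smad1 stood at -0.68, Smad5 at -1.17, Pmepa1 at -1.06 and Ppm1a at 0.62, none past the threshold. Without both arrays of high Gapdh ratio Smad5 stood at -1.32 (adjusted p = 0.0721) and Ppm1a at 0.29 (adjusted p = 0.251), and neither passed.

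Genes that SMADs are known to regulate had 1 higher and 4 lower of 13 tested in aged knockouts, and 1 higher and 1 lower in adult ones, beside 29.4% and 16.6% of all genes called. Their medians were -0.78 in aged and 0.33 in adult muscle. Id1, an inhibitor of differentiation induced by BMP signals, fell by 1.66 (SE 0.28, limma adjusted p = 0.000371) in aged knockouts. Id3 fell by 0.81 in aged knockouts (adjusted p = 0.00437) and rose by 0.57 in adult ones (adjusted p = 0.0365). The collagen gene Col1a1 rose by 3.71 in aged knockouts (adjusted p = 0.000682) and fell by 2.67 in adult ones (adjusted p = 0.00918), with 528 to 1649 in KO_Aged and 83.8 to 2178 in KO_Adult against 35.6 to 93.2 in WT_Aged and 1222 to 3161 in WT_Adult. With the spike-in term Col1a1 stood at 0.30 and -0.62, Id1 at -1.11 and Id3 at -0.61 and 0.46, none past the threshold.

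Genes of muscle mass control downstream of the receptors had 1 lower of 8 in aged knockouts, and 2 higher and 1 lower in adult ones, beside 29.4% and 16.6% of all genes called. Their medians were 0.12 in aged and -0.27 in adult muscle. The ubiquitin ligase Fbxo32 (atrogin-1), which marks muscle wasting, fell by 1.65 in aged knockouts (SE 0.46, limma adjusted p = 0.0123) and stood at -0.14 with the spike-in term and at -1.03 (adjusted p = 0.228) without both arrays of high Gapdh ratio. In adult knockouts the kinase Akt1 fell by 1.12 (SE 0.23, adjusted p = 0.0028) and passed with the term (-1.09, adjusted p = 0.0415). Eif4ebp1, a repressor of translation, rose by 0.89 (adjusted p = 0.0333). Foxo3, a transcription factor of the atrophy programme, rose to 750 ± 349 in KO_Adult, against 391 ± 178 in WT_Adult (SD, n = 5 each, limma adjusted p = 0.0473). Neither passed with the term (0.97 for Eif4ebp1 and 0.36 for Foxo3).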

How the data were processed

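Each of the 19 arrays measured total RNA of 1 tibialis anterior sample; per the labels' protocols it was extracted with RNeasy and made into biotinylated cRNA. The deposited values are linear intensities, and the submitters' processing notes name MAS5, without a version. The 2% trimmed mean of every array is 500.2 or 500.3, so arrays had been scaled; their median intensity was 86.5 to 136. The array number limits the precision.

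From these intensities log2(value + 4.76) was computed, 4.76 being percentile 10 of all values. Quantile normalization ran over all 22690 probe sets, the 64 control probe sets among them, and the controls were left out after it. In the platform annotation 20380 probe sets have a single symbol, 691 have more and 1555 lack one. Each gene was represented by its brightest probe set (mean log2), and 7436 of 12393 genes, the upper 60%, entered the tests. All 9 measured genes passed this filter, Inhba at percentile 40.4 and Fstl3 at 41.7 being nearest its limit of 40. limma 3.58.1 in R 4.3.3 fitted a mean per group over all 19 arrays (lmFit, then eBayes); calls are at a Benjamini-Hochberg adjusted p under 0.05 over all genes tested. A fold on this scale understates the change of dim genes. The remaining steps ran in Python 3.11.15 (numpy 2.4.6, pandas 2.3.3; figures with matplotlib 3.10.9), and the fit was tested on simulated data.

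The genes, lists and tests were chosen with earlier results of these data known. The plan was to test Fst everywhere but between adult genotypes; it is tested here only between aged genotypes, since the other comparisons use the adult arrays on which it was chosen. Named besides the listed genes are Des, up to 4 called genes per pathway list and genotype comparison, up to 4 markers, and the 5 genes most and 3 least like Fst. Gene positions and promoters are RefSeq's (GRCm38.p6). Alternatives covered normalization, pseudocount, filter, probe set, variance model, array weights, groups in the fit, spike-in signal (dap above 100) as a term, arrays with a Gapdh ratio above 3, and each array left out; the spike-in term together with leaving out those arrays, the title code as a random block (duplicateCorrelation) and leaving out the arrays of the code that both aged groups share were added after the data were seen.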

Additional observations from a re-analysis of the deposited data

Results flagged for a closer look

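A few results stood out by simple rules. Fst read 246 on WT_Aged replicate 1, the highest of its group, where the other 4 arrays read 153 to 174; its gap to the nearest array was 0.77 of the group's range. This was the 1 array so marked among 36 groups of arrays examined, and chance marks about 1 in 20. With or without it, all 4 KO_Aged arrays lay above the group.

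The genotype difference of Fstl3 depended on age (interaction 1.16, limma adjusted p = 0.0233), with a fall in KO_Adult against WT_Adult and no call in KO_Aged against WT_Aged. That of Smad7 did so in the other direction (interaction -1.26, adjusted p = 0.0229), with the call in aged muscle. In both, the WT_Aged arrays carry spike-in signal and the KO_Aged and WT_Adult arrays do not, and neither interaction passed with that signal as a term (1.14 and -0.06).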

How the results depend on the processing

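No paired analysis was possible because the groups compared share fewer than 2 numbers: of 14 codes in the sample titles, 1 occurs in more than 1 group, on KO_Aged replicate 4 and WT_Aged replicates 4 and 5, and what it marks is not stated. Of all values recomputed, 1386 kept direction and side of the threshold, 35 passed newly and 39 no longer passed. A further 12 changed sign with a call in either fit, and 62 moved, among them sign changes without a call. The Fst difference between adult genotypes was 1.86 with a pseudocount of 32, and between aged genotypes 0.70 with the spike-in term and 0.76 with the term and without high Gapdh arrays, neither past the threshold. Without the 3 arrays of the shared code it was 0.80, also short of the threshold, and 1 listed gene was called in KO_Aged against WT_Aged (14.3% of all genes called). With the code as a random block, chosen like the last after seeing the data (correlation 0.29), 0 were called in KO_Adult against WT_Adult and 1 for the interaction. Of all genes 8.73% and 19.9% were called. Leaving out 1 array gave Fst 2.20 to 2.53 in adult and 0.76 to 0.95 in aged muscle. It gave 1 to 2 genes called in KO_Adult against WT_Adult (10% to 20.5% of all genes called) and 3 to 4 in KO_Aged against WT_Aged (21% to 31.2%). In WT_Aged against WT_Adult it gave 2 to 3 (28.8% to 41.8%), in KO_Aged against KO_Adult 0 to 2 (2.51% to 9.74%) and for the interaction 1 to 4 (18.7% to 31.4%). Without KO_Adult replicate 2 these were 2, 4, 3, 2 and 4, with 20.5%, 31.2%, 40.9%, 9.74% and 31.4% of all genes called.

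With array weights 4, 5, 5, 3 and 5 genes were called in the same order, with 51.2%, 39.1%, 62.3%, 17.1% and 53.1% of all genes called. With no normalization the interaction called 1 (28% of all genes called), and the mean of all probe sets called 5 between wild-type ages (36.9%). Testing the upper 40% of genes kept 3 of the list and called 0 in KO_Adult against WT_Adult, 1 in KO_Aged against WT_Aged, 0 in WT_Aged against WT_Adult and 1 for the interaction. Of the 4957 genes so tested, 19.3%, 32.5%, 42.1% and 28% were called in this order. The spike-in term, with or without the high Gapdh arrays, called 0 in KO_Adult against WT_Adult, 0 in WT_Aged against WT_Adult, 1 in KO_Aged against KO_Adult and 0 for the interaction. Only arrays without signal called 0 in KO_Adult against WT_Adult, and leaving out the high Gapdh arrays called 0 interactions.

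Signs turned with a call in either fit for Acvr1, Smad3 and Smad7. In KO_Aged against WT_Aged Acvr1 was 0.64 with the mean of probe sets and 1.21 and 0.92 on its other sets. In WT_Aged against WT_Adult it was -0.73, -1.42 and -0.80, and for the interaction 0.91, 2.03 and 1.14. Smad3 between wild-type ages was 1.15 with the spike-in term, with and without the high Gapdh arrays, and the Smad7 interaction 0.34 with both changes. Other signs turned where neither fit gave a call. With the term Smad3 stood at 0.37 between adult genotypes (-1.19 without it) and at -3.47 for the interaction (0.70 without it). Fstl1 stood at 0.42 (-0.29) and -0.90 (0.98) in the same comparisons. The cause was not tested.

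Over all genes, limma called 1234 in KO_Adult against WT_Adult, 2187 in KO_Aged against WT_Aged, 2890 in WT_Aged against WT_Adult, 544 in KO_Aged against KO_Adult and 1870 for the interaction. In this order the spike-in term gave 496, 405, 7, 743 and 2, and the term without the high Gapdh arrays 588, 560, 5, 928 and 0, the last with 1839 genes at an unadjusted p under 0.05. Array weights gave 3807 in KO_Adult against WT_Adult, 4635 in WT_Aged against WT_Adult, 1272 in KO_Aged against KO_Adult and 3945 for the interaction. The code as a block gave 649 in KO_Adult against WT_Adult. Without its 3 shared arrays 1060 were called in KO_Aged against WT_Aged, 1756 in WT_Aged against WT_Adult, 226 in KO_Aged against KO_Adult and 1023 for the interaction. Leaving out the high Gapdh arrays gave 1055 in KO_Aged against WT_Aged, 115 in KO_Aged against KO_Adult and 1079 for the interaction. In KO_Adult against WT_Adult and KO_Aged against KO_Adult, fitting only the groups compared gave 623 and 51, and only arrays without signal 107 and 5; no filter gave 357 in the second. Median centring moved the split of higher and lower calls to 895 and 369 in KO_Adult against WT_Adult, against 536 and 698, to 1589 and 1046 in WT_Aged against WT_Adult, against 1330 and 1560, and to 640 and 1060 for the interaction, against 1078 and 792. No normalization gave 421 and 996 in KO_Adult against WT_Adult, 477 and 227 in KO_Aged against KO_Adult and 1480 and 602 for the interaction. The median over all genes was 0.19 in KO_Adult against WT_Adult (0.04 with quantile normalization) and -0.13 for the interaction (0.04) with median centring, and 0.17 for the interaction with no normalization. Fitting only the groups compared was not run for the interaction, nor were comparisons with WT_Aged among arrays without signal, since all its arrays have it.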

Other observations

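The marker lists held other differences. Of 8 endothelial markers tested, 7 fell in KO_Adult against WT_Adult, where 9.39% of all genes were called lower, with a median log2 difference of -1.32. In KO_Aged against WT_Aged 1 was higher and 2 lower, with a median of -0.01. There 17.1% of all genes were called higher and 12.3% lower. The interaction called 5 of the 8 higher, where 14.5% of all genes were called higher. With spike-in signal as a term it called 0 of the 8, with 3 at an unadjusted p under 0.05, as were 1228 of all 7436 genes. Of 9 fibroblast markers, 2 were higher and 1 lower in KO_Aged against WT_Aged, where 29.4% of all genes were called. Col3a1, a fibrillar collagen, rose there by 1.86 (SE 0.29, limma adjusted p = 0.000197) and stood at 1.15 (adjusted p = 0.135) with spike-in signal as a term. The 4 neutrophil markers tested were all called higher in WT_Aged against WT_Adult, with a median of 2.55 and 38.9% of all genes called. Those groups differ completely in spike-in signal, and with the term limma called 0 of the 4. An unadjusted p under 0.05 was found there for 2 of the 4 and for 1052 of all 7436 genes.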
